A study of Homo sapiens with 3 samples.

Results

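The calpain family and its inhibitor calpastatin were followed through 3 RNA sequencing libraries of Hep3B cells, an established human hepatoma line, with wild-type genotype in the labels. The 10 genes (CAPN1, CAPN2, CAPN5, CAPN7, CAPN8, CAPN9, CAPN10, CAPN15, CAPNS1 and CAST) were taken by symbol from the 61533 genes of each table. They were chosen because CAPN8 was already known to be far higher at each step of the design, so its ratios are given as a description and support nothing. The first library came from cells kept at 1% oxygen with oxamate sodium, which blocks lactate dehydrogenase and so the making of lactate from pyruvate. The second came from cells at 1% oxygen without oxamate, and the third from cells at 20% oxygen. They are called oxamate, hypoxia and normoxia below. All cells were grown in the same medium with serum. A time of 48 hours stands in the design text, which leaves unclear whether it holds for every group, and no dose of oxamate is given in the sources used here. Each group is 1 library, so differences have no check by replicates and are given without p-values.

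Calpains are calcium-dependent cysteine proteases that cut their substrates at a limited number of sites and so alter rather than degrade them. The conventional enzymes, CAPN1 and CAPN2, each pair with the small regulatory subunit CAPNS1 and are held in check by calpastatin, the product of CAST. They act on cytoskeletal and adhesion proteins during cell spreading and migration. CAPN8 and CAPN9 are known mainly from the mucus-producing cells of the stomach, where the 2 proteins form a complex. CAPN5, CAPN7, CAPN10 and CAPN15 lack the calcium-binding penta-EF-hand domain of the conventional enzymes.

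The libraries held 24826365 fragments in oxamate, 26309340 in hypoxia and 27412147 in normoxia. All 8 listed target genes of HIF, the hypoxia-inducible factors, were at least 2-fold higher in hypoxia than in normoxia, against 10.8% of all genes. This list was chosen with earlier results of these data known, so it is no independent check of the labels. CA9, a carbonic anhydrase of that list, had 5823 fragments in oxamate, 5112 in hypoxia and 173 in normoxia. In oxamate against hypoxia, 2 of the 8 (SLC2A1 and BNIP3) were at least 2-fold higher and 0 lower. Albumin (ALB), which marks hepatocytes and hepatoma lines, had 1963 FPKM in oxamate, 2578 FPKM in hypoxia and 5362 FPKM in normoxia. Of 12 hepatocyte and Hep3B markers, 0 were higher and 6 lower by at least 2-fold in oxamate against hypoxia, and 1 was higher and 6 lower in hypoxia against normoxia. Of all genes, 5.92% were higher and 5.07% lower in the first of these comparisons, and 10.8% and 8.07% in the second. The summed level of the 12 markers was 3376 FPKM in oxamate, 5705 in hypoxia and 9158 in normoxia. The sum was lowest where CAPN8 was highest, while single markers differed: TF (transferrin) was 3.38-fold higher in hypoxia than in normoxia. The part of these markers in the calpain values was not tested.

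CAPN8 and CAPN2 lie head to head on chromosome 1. In the coordinates of the deposited tables (hg38), CAPN8 spans chr1:223538007-223665723 on the minus strand and CAPN2 spans chr1:223701593-223776018 on the plus strand, so that their starts are 35.87 kb apart. Their promoters are shown because these are the genes of the family that were at least 2-fold higher in oxamate than in hypoxia. The sequences are from RefSeq (GRCh38.p14) and run from 250 bases before to 50 bases after the start, read 5′ to 3′ on the gene's strand. Promoter rows matched 9 of the 10 genes, with none for CAPN5, and CAPN2 has 2 annotated starts. The capitals mark matches to TGANTCA, letters used here to search for the AP-1 element with any base allowed in the middle. These letters read the same on both strands apart from the middle base. The CAPN8 promoter (chr1:223665652-223665951, minus strand) is followed by the first CAPN2 promoter (chr1:223701347-223701646, plus strand) and the second (chr1:223712289-223712588, plus strand).
CAPN8: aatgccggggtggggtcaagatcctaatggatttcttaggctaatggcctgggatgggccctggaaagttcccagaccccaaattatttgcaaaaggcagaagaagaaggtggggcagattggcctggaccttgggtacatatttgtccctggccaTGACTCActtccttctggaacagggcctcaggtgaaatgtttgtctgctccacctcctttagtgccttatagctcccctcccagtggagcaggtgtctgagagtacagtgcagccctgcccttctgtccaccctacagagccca
CAPN2 start 1: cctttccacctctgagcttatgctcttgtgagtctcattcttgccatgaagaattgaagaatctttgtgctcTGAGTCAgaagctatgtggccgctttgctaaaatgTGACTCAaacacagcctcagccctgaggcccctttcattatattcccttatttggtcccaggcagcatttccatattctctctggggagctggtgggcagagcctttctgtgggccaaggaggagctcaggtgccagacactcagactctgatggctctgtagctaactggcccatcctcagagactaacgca
CAPN2 start 2: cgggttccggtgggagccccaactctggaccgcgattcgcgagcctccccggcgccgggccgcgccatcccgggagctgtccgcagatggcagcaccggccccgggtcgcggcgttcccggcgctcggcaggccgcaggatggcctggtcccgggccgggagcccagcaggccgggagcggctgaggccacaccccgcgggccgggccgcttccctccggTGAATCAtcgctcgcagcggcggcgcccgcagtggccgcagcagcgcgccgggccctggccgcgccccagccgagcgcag

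The CAPN8 window held 1 match to TGANTCA, 94 bases before the start. The first CAPN2 window held 2, at 178 and 143 bases before the start, and the second held 1, at 30 bases before it. That last match is TGAATCA, with A in the middle, while the other matches printed above have C or G there. Of all 35116 RefSeq promoters of this length, 7.71% hold at least 1 such match. Among the other calpain genes, 1 of the 2 CAPNS1 windows and 1 of the 5 CAST windows held one. The CAPN8 window and both CAPN2 windows held no match on either strand to the HIF core letters ACGTG or GCGTG, which occur in 21.4% and 36.5% of promoters, or to the ATF4 letters TGATGNAA, which occur in 3.62%. A palindromic CACGTG counts as a match to ACGTG on each strand, and the 4 searches can overlap. GC content was 53.7% in the CAPN8 window, 50.3% in the first CAPN2 window and 79.7% in the second. These matches describe letters and do not show binding. The gene-level tables do not tell which CAPN2 start was used.

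CAPN8 (ENSG00000203697) encodes calpain 8, a catalytic subunit. It had 5248 fragments in oxamate, 274 in hypoxia and 15 in normoxia. Per length, its level was 40.1 FPKM in oxamate, 1.90 FPKM in hypoxia and 0.113 FPKM in normoxia. The 95% Poisson intervals of these levels were 39.0 to 41.2, 1.69 to 2.14 and 0.0631 to 0.186 FPKM, so the 3 libraries did not overlap in counting error. Intervals here cover counting error only: the fragments carry no molecular identifiers in the sources used here, so they may not be independent molecules, and the spread between cultures is not known. The normalised fragments of CAPN8 were 21.2-fold higher in oxamate than in hypoxia (95% interval 18.8 to 24.0) and 17.1-fold higher in hypoxia than in normoxia (10.2 to 30.9). The width of the second interval comes from the 15 fragments of the normoxia library. Oxamate against normoxia, which shares a library with each step, gave a ratio of 362 (219 to 647). In bulk RNA, a few cells with much CAPN8 RNA and many cells with a little cannot be told apart, and for genes that were lower, fewer cells and less RNA per cell cannot be told apart.

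Ranked by ratio, CAPN8 was 16th of 13739 genes with at least 50 fragments in either library for oxamate against hypoxia. It was 72nd of 13554 for hypoxia against normoxia and 7th of 13597 for oxamate against normoxia. The annotated exons of CAPN8 overlap no other gene of GENCODE 29, and none of its transcript words of 50 bases occurs in another gene. Its coding sequence, 703 codons long, is most like that of CAPN2, with 65.3% of aligned bases identical, followed by CAPN1 with 63.0% and CAPN9 with 58.3%. The plot of FPKM by library places CAPN8 beside the rest of the family.

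**Figure D1:**
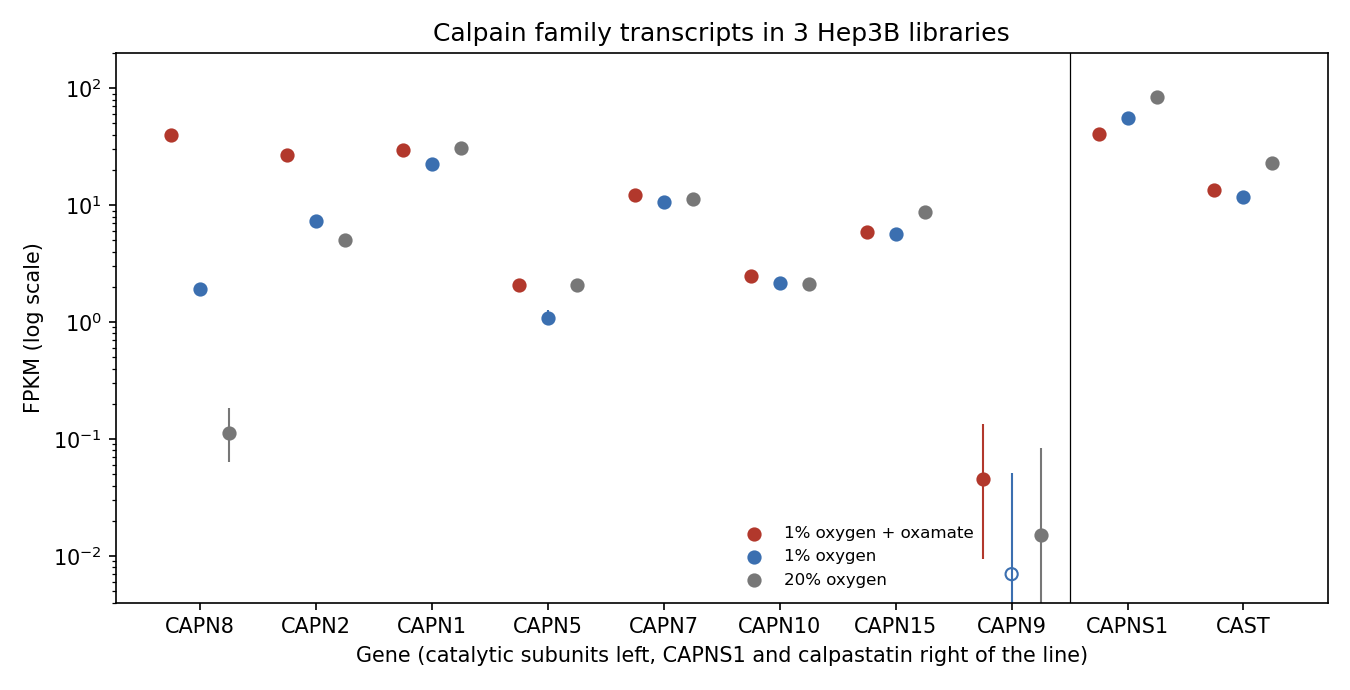
FPKM (log axis) of the 10 genes in 1 library each of oxamate (red), hypoxia (blue) and normoxia (grey), with 95% Poisson intervals of the fragment counts; the open circle is CAPN9 in hypoxia, with 0 fragments, drawn at an arbitrary height, and lines are cut off at the axis. CAPN8 stands at 40.1, 1.90 and 0.113 FPKM, while CAPN7 and CAPN10 stand nearly level across the libraries.

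CAPN2, the catalytic subunit of the conventional enzyme that needs more calcium in the test tube, was the other gene at least 2-fold higher with oxamate. It had 5811 fragments in oxamate, 1742 in hypoxia and 1123 in normoxia, or 26.8, 7.30 and 5.09 FPKM. Oxamate stood apart from both other libraries. The ratio was 3.69 for oxamate against hypoxia (3.50 to 3.90) and 1.45 for hypoxia against normoxia (1.34 to 1.56). The second of these did not reach 2-fold. Oxamate against normoxia gave 5.35 (5.02 to 5.71). Of the CAPN2 transcript words of 50 bases, 0.428% occur in another gene.

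CAPN1, the catalytic subunit of the conventional enzyme that needs less calcium, did not show this pattern. It had 5638 fragments in oxamate, 4720 in hypoxia and 5920 in normoxia, or 29.7, 22.6 and 30.7 FPKM. Hypoxia was the lowest library, and oxamate and normoxia had nearly equal levels. The ratio was 1.32 for oxamate against hypoxia (1.27 to 1.37), and CAPN1 was 1.34-fold lower in hypoxia than in normoxia (1.29 to 1.39). The oxamate against normoxia ratio of 0.985 had an interval of 0.949 to 1.02 that includes no difference. CAPN2 thus stood at 0.901 of the CAPN1 level per length in oxamate, 0.323 in hypoxia and 0.166 in normoxia.

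CAPN5 is the human counterpart of the worm sex-determination protease TRA-3. It had 323 fragments in oxamate, 186 in hypoxia and 328 in normoxia, or 2.08, 1.09 and 2.08 FPKM. Hypoxia was again the low library. CAPN5 was 1.92-fold higher in oxamate than in hypoxia (1.60 to 2.31) and 1.89-fold lower in hypoxia than in normoxia (1.57 to 2.27), both short of 2-fold with intervals that reach past it. Oxamate against normoxia gave 1.02 (0.870 to 1.19).

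The remaining catalytic genes varied less. CAPN7, whose product binds proteins of the membrane-cutting ESCRT-III complex, had 1739, 1654 and 1638 fragments in oxamate, hypoxia and normoxia, or 12.3, 10.6 and 11.4 FPKM. CAPN10, first studied as a candidate gene for type 2 diabetes, had 472, 452 and 407 fragments in the same libraries, or 2.50, 2.18 and 2.12 FPKM. Both genes had ratios between 0.944 and 1.20 in all 3 comparisons. CAPN15, a calpain with zinc fingers at its start, had 1186 fragments in oxamate, 1267 in hypoxia and 1805 in normoxia, or 5.87, 5.70 and 8.78 FPKM. Here normoxia was the high library: CAPN15 was 1.52-fold lower in hypoxia than in normoxia (1.42 to 1.64), while its oxamate against hypoxia ratio was 1.04 (0.956 to 1.12). Of the exon bases of these and other family genes, 8.75% in CAPN10 overlap GPR35 on the same strand, and 5.96% in CAPN15, 5.73% in CAPN1 and 4.02% in CAST overlap genes on the opposite strand, so some of their reads are uncertain.

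CAPN9, the gastric partner of CAPN8, had 3 fragments in oxamate, 0 in hypoxia and 1 in normoxia. These counts are at or below the floor of 3 counts that a count of 0 allows, so CAPN9 was not detectable at this depth and no fold is given.

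CAPNS1, the regulatory subunit shared by CAPN1 and CAPN2, went the other way from CAPN8 and CAPN2. It had 3183 fragments in oxamate, 4802 in hypoxia and 6743 in normoxia, or 40.6, 55.7 and 84.6 FPKM. The 3 libraries were apart by more than counting error, with oxamate lowest. The ratio was 0.733 for oxamate against hypoxia (0.701 to 0.767) and 0.666 for hypoxia against normoxia (0.641 to 0.691). Oxamate against normoxia gave 2.05-fold lower (1.96 to 2.14), which passes the 2-fold rule by a small margin: scaled by total fragments, the log2 ratio was -0.94 in place of -1.03, short of 2-fold. The same loss occurred with scaling factors from protein-coding genes and with trends of gene length or GC content removed.

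CAST, the calpastatin gene, had 4574 fragments in oxamate, 4397 in hypoxia and 7825 in normoxia, or 13.6, 11.9 and 22.8 FPKM. Both libraries at 1% oxygen were lower than normoxia and near each other. CAST was 1.90-fold lower in hypoxia than in normoxia (1.83 to 1.98) and 1.65-fold lower in oxamate than in normoxia (1.60 to 1.72), both under 2-fold. The oxamate against hypoxia ratio was 1.15 (1.10 to 1.20). With a trend on gene length removed, both deficits against normoxia passed 2-fold, at log2 ratios of -1.21 for hypoxia and -1.05 for oxamate. CAST has the longest summed exons of the family at 13341 bases, which enters its FPKM.

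**Figure D2:**
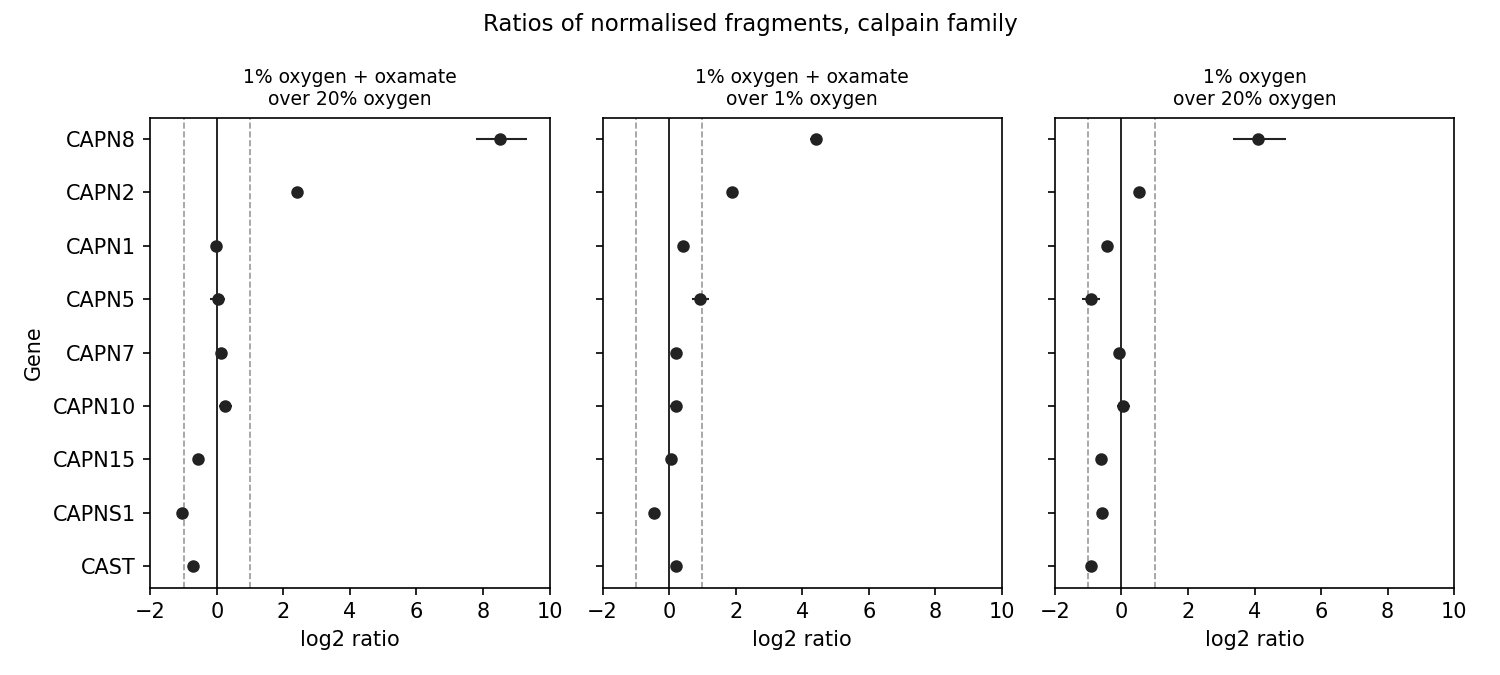
Log2 ratios of normalised fragments for 9 of the 10 genes, with 95% exact intervals for counting error, in 3 comparisons of 1 library each; dashed lines mark 2-fold. CAPN8 and CAPN2 lie right of the dashed line in both panels with oxamate on top, and CAPN8 is the only one to do so for hypoxia over normoxia.

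The counts of higher and lower genes follow a rule of size: a ratio of 2 or more either way, and 50 or more fragments on the higher side. CAPN9 fell under that minimum in every library. Of the other 9 genes, 2 were higher (CAPN8 and CAPN2) and 0 lower in oxamate against hypoxia, where 5.92% of all 13739 genes were higher and 5.07% lower. In hypoxia against normoxia, 1 was higher (CAPN8) and 0 lower, where 10.8% of all 13554 genes were higher and 8.07% lower. In oxamate against normoxia, 2 were higher (CAPN8 and CAPN2) and 1 lower (CAPNS1), where 15.4% of all 13597 genes were higher and 15.3% lower. The genes were selected on these contrasts, so nothing is read from the counts. The median log2 ratio of the 9 genes was 0.22 for oxamate against hypoxia, -0.42 for hypoxia against normoxia and 0.03 for oxamate against normoxia. Over all genes counted it was -0.01, -0.11 and -0.11. The split of all genes into higher and lower depends on scaling. In hypoxia against normoxia, 57.3% of the genes past 2-fold were higher as scaled here, 70.3% with total fragments, a scaling that shifts all log2 ratios by 0.16, and 64.6% with factors from protein-coding genes. In oxamate against hypoxia it was 53.8% as scaled here and 47.4% with total fragments, so that more genes were then lower than higher. In oxamate against normoxia it was 50.1% as scaled here and 56.6% with total fragments. The steps share the hypoxia library, so a high or low value there moves both ratios of a gene in opposite directions.

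The order of the transcripts per length differed between libraries. In oxamate, CAPNS1 and CAPN8 led with overlapping intervals, followed by CAPN1, CAPN2, CAST, CAPN7 and CAPN15, then CAPN10 and CAPN5 with overlapping intervals, and CAPN9. In hypoxia the order was CAPNS1, CAPN1, CAST, CAPN7, CAPN2 and CAPN15, then CAPN10 and CAPN8 with overlapping intervals, CAPN5 and CAPN9. In normoxia it was CAPNS1, CAPN1, CAST, CAPN7, CAPN15 and CAPN2, then CAPN10 and CAPN5 with overlapping intervals, and CAPN8 and CAPN9 with overlapping intervals. CAPN8 thus ranked second of the 10 in oxamate, eighth in hypoxia and ninth in normoxia, where its 15 fragments and the 1 fragment of CAPN9 give wide intervals.

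Summed over the 8 catalytic genes, the level was 119 FPKM in oxamate, 51.4 FPKM in hypoxia and 60.2 FPKM in normoxia. CAPN8 made up 33.6% of the sum in oxamate, 3.70% in hypoxia and 0.187% in normoxia. CAPN1 made up 24.9%, 44.0% and 50.9% in the same libraries, and CAPN2 made up 22.4%, 14.2% and 8.44%. Without CAPN8 the sum was 79.3 FPKM in oxamate, 49.5 FPKM in hypoxia and 60.1 FPKM in normoxia. The largest share was that of CAPN8 in oxamate and that of CAPN1 in hypoxia and normoxia.

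**Figure D3:**
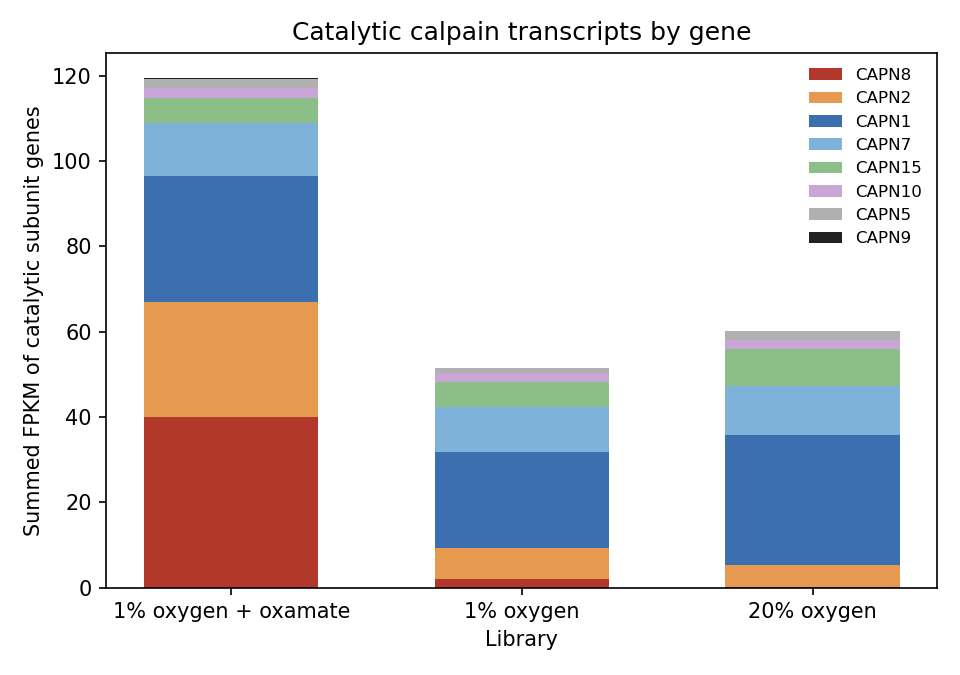
Summed FPKM of the 8 catalytic calpain genes in 1 library each, stacked by gene; there are no error bars because each group has 1 library. The bar reaches 119 FPKM in oxamate, 51.4 FPKM in hypoxia and 60.2 FPKM in normoxia, and the CAPN8 and CAPN2 segments are thickest in oxamate.

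The transcripts of regulator and inhibitor were also set against those of the conventional catalytic subunits, CAPN1 and CAPN2 together. That sum was 56.5 FPKM in oxamate, 29.9 FPKM in hypoxia and 35.7 FPKM in normoxia. CAPNS1 stood at 0.719 of it in oxamate, 1.86 in hypoxia and 2.37 in normoxia. CAST stood at 0.240 of it in oxamate, 0.396 in hypoxia and 0.638 in normoxia. Both quotients were lowest in oxamate and highest in normoxia. They compare transcripts and not proteins.

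Of 7 further calpain genes, only 2, CAPN6 and CAPN12, had at least 50 fragments in a library. CAPN6, which lacks the catalytic cysteine, was the one of these past 2-fold. It had 43 fragments in oxamate, 46 in hypoxia and 292 in normoxia, and was 6.79-fold lower in hypoxia than in normoxia (4.96 to 9.48). In that comparison 10.8% of all genes were higher and 8.07% lower. CAPN12 had 289, 211 and 177 fragments in oxamate, hypoxia and normoxia and stayed under 2-fold, and 18.3% of its exon bases overlap other genes, ACTN4 among them. CAPN3, the muscle calpain, had 28, 43 and 32 fragments in the same order of libraries. CAPN11 had 1 fragment in hypoxia and 0 elsewhere, and CAPN13, CAPN14 and CAPNS2 had 0 in every library.

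The 23 genes of known calpain substrates in the cytoskeleton and at adhesions included 0 that were higher and 0 lower in any of the 3 comparisons. Of all genes, 5.92% were higher and 5.07% lower in oxamate against hypoxia. The shares were 10.8% and 8.07% in hypoxia against normoxia, and 15.4% and 15.3% in oxamate against normoxia. The median log2 ratio of the 23 genes was -0.10 for oxamate against hypoxia, 0.13 for hypoxia against normoxia and -0.07 for oxamate against normoxia. Talin (TLN1), which links integrins to actin, had 46.4 FPKM in oxamate, 45.7 FPKM in hypoxia and 39.6 FPKM in normoxia. Spectrin (SPTAN1), whose cleavage is a common readout of calpain activity, had 42.4, 45.9 and 50.1 FPKM in the same libraries. Filamin A (FLNA), an actin cross-linker, had 71.9, 92.7 and 49.9 FPKM. These are levels of substrate transcripts and do not measure cleavage.

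Other lists tied to calpains were largely under 2-fold. All 6 genes of store-operated calcium entry stayed under it in all 3 comparisons. So did all 13 measured genes listed for ESCRT-III, with VPS4A and VPS4B among them. Of all genes, 5.92% were higher and 5.07% lower in oxamate against hypoxia. The shares were 10.8% and 8.07% in hypoxia against normoxia, and 15.4% and 15.3% in oxamate against normoxia. Of the 4 other penta-EF-hand genes, GCA (grancalcin) was 2.05-fold lower in oxamate than in hypoxia (1.79 to 2.36), and SRI (sorcin, a regulator of calcium release) was 2.32-fold lower in hypoxia than in normoxia (2.13 to 2.52). SRI had 7.23 FPKM in oxamate, 6.90 in hypoxia and 16.2 in normoxia. PEF1 and PDCD6, of the same protein family as CAPNS1, stayed under 2-fold in all 3 comparisons.

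Protease lists outside the family gave a comparison. Of 10 measured cysteine proteases of the lysosome, the cathepsins and legumain (LGMN), 0 passed 2-fold in oxamate against hypoxia. Of all genes, 5.92% were higher and 5.07% lower there. In hypoxia against normoxia, CTSK was 3.46-fold higher (2.74 to 4.41), CTSS was 3.34-fold higher (2.34 to 4.87) and CTSH was 2.06-fold lower (1.91 to 2.22). Of 8 measured caspases, 0 passed 2-fold in either step. The shares of all genes in hypoxia against normoxia were 10.8% higher and 8.07% lower. In oxamate against normoxia, 2 of the 10 lysosomal proteases were higher and 3 lower, and of the 8 caspases 0 were higher and 1 lower. Of all genes, 15.4% were higher and 15.3% lower in that comparison. CSTB and CST3, the cystatins that inhibit cathepsins and that had enough fragments, were under 2-fold in each step and were 2.20-fold (2.07 to 2.34) and 2.35-fold lower (2.18 to 2.53) in oxamate than in normoxia.

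CAPN8 is known mainly from the stomach, so 12 markers of gastric and mucous epithelium were read beside it. Their summed level was 5.43 FPKM in oxamate, 4.58 FPKM in hypoxia and 3.36 FPKM in normoxia. The largest part was the mucin MUC1, with 2.16, 2.38 and 1.47 FPKM in the same libraries, so it was not highest in oxamate. The gastrokines GKN1 and GKN2 had 0 fragments in every library, and the mucin MUC5AC had 0 in oxamate, 2 in hypoxia and 0 in normoxia. The trefoil factor TFF1 had 22 fragments in oxamate, 13 in hypoxia and 0 in normoxia. Only 2 of the 12 markers, MUC1 and VSIG1, had at least 50 fragments in a library. Of these, VSIG1 was past 2-fold, with 24 fragments in oxamate, 17 in hypoxia and 114 in normoxia. Among 5 endothelial markers, PECAM1 moved with CAPN8, with 499 fragments in oxamate, 230 in hypoxia and 33 in normoxia, while KDR had 0 in every library and VWF, CDH5 and TEK had 0 to 3 fragments each. The summed level of those 5 markers was 2.57 FPKM in oxamate, 1.08 FPKM in hypoxia and 0.179 FPKM in normoxia. Their part in the CAPN8 values was not tested. The 7 blood cell markers summed to 34.9 FPKM in oxamate, 18.8 FPKM in hypoxia and 25.2 FPKM in normoxia, most of it lysozyme (LYZ). CD14, a monocyte marker, had 17 fragments in oxamate, 22 in hypoxia and 140 in normoxia. LYZ and CD14 were the 2 blood markers with at least 50 fragments in a library, and only CD14 was past 2-fold. PTPRC, which marks white blood cells, had 8 fragments in oxamate and 0 in both other libraries. The 6 stellate cell and fibroblast markers summed to 0.972 FPKM in oxamate, 2.76 FPKM in hypoxia and 2.05 FPKM in normoxia. COL1A1 and PDGFRB, the 2 with at least 50 fragments, were past 2-fold lower in oxamate than in hypoxia. At few fragments, COL3A1 went the other way, with 13 in oxamate, 1 in hypoxia and 0 in normoxia, as did DES with 3, 0 and 0. For comparison with these marker lists, 5.92% of all genes were higher and 5.07% lower in oxamate against hypoxia. The shares were 10.8% and 8.07% in hypoxia against normoxia, and 15.4% and 15.3% in oxamate against normoxia.

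Around CAPN8, 16 protein-coding genes start within 1000 kb, of which 14 had at least 50 fragments in a library. Of these 14, 5 were higher and 0 lower in oxamate against hypoxia, and 2 were higher and 0 lower in hypoxia against normoxia. FAM177B could not be called in the second comparison, with 30 fragments in hypoxia and 2 in normoxia. Its ratio there was 14.0 (3.56 to 121). Over all genes, 5.92% were higher and 5.07% lower in oxamate against hypoxia, and 10.8% were higher and 8.07% lower in hypoxia against normoxia. Both counts include CAPN8, for which the region was chosen, so nothing is read from them. Besides CAPN8 and CAPN2, the higher ones with oxamate were FAM177B at 3.95-fold (2.61 to 6.13), SUSD4 at 2.41-fold (1.87 to 3.13) and DISP1 at 2.23-fold (1.93 to 2.60), and WDR26 was 2.07-fold higher in hypoxia than in normoxia (2.01 to 2.15). These 4 are named after their values were seen. TP53BP2, the next protein-coding gene beyond CAPN2, had 3648 fragments in oxamate, 3087 in hypoxia and 2830 in normoxia, a ratio of 1.31 for oxamate against hypoxia (1.25 to 1.37) and 1.02 for hypoxia against normoxia (0.968 to 1.07). CCDC185, the next one on the other side, had 1 fragment in each library.

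**Figure D4:**
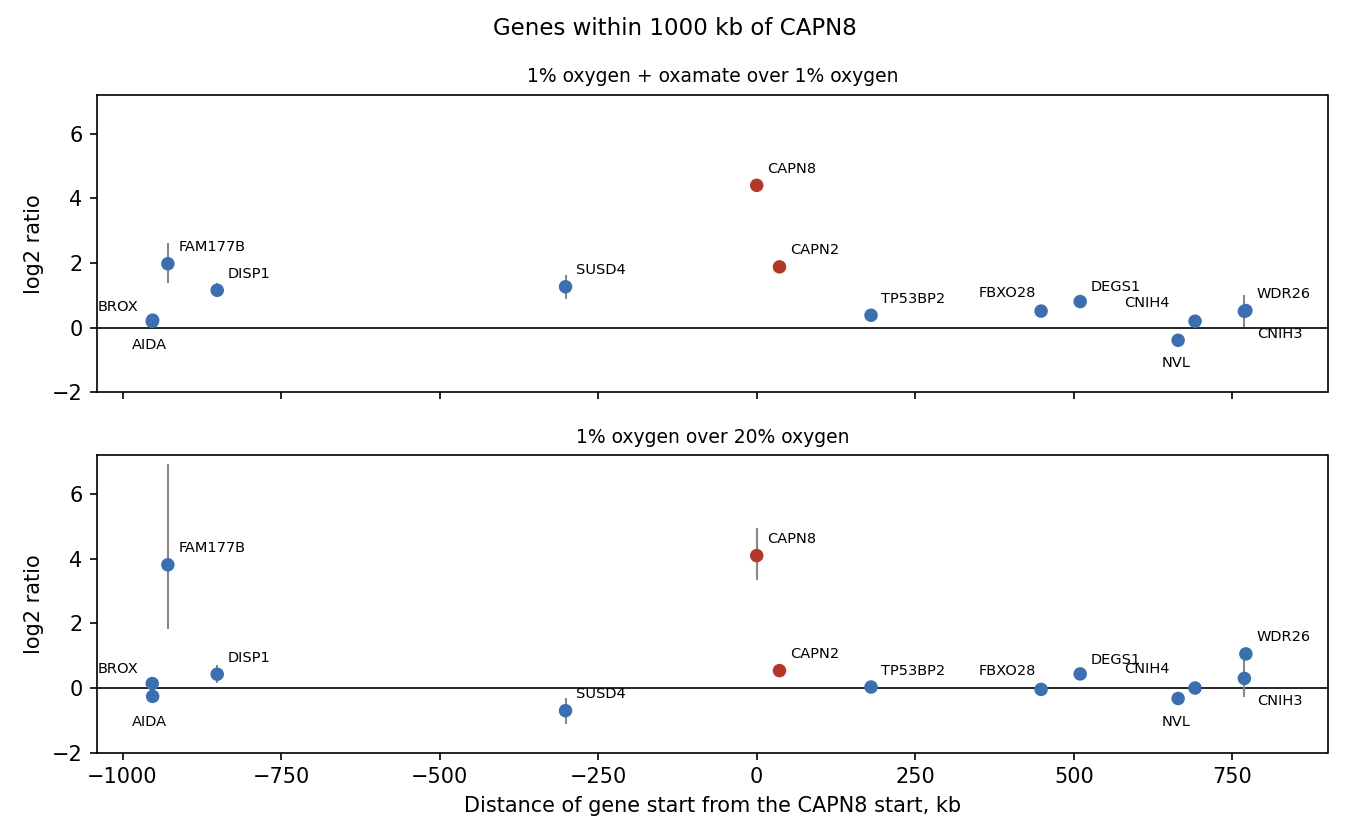
Log2 ratios of the 14 protein-coding genes within 1000 kb of the CAPN8 start that had at least 50 fragments in a library, against the distance of gene starts in kb; CAPN8 and CAPN2 are red and lines are 95% exact intervals for counting error. In the upper panel CAPN8 (21.2-fold) and CAPN2 (3.69-fold) stand above TP53BP2 (1.31-fold), and in the lower panel CAPN8 stands at 17.1-fold and CAPN2 at 1.45-fold, while the high point of FAM177B there rests on 30 fragments in hypoxia and 2 in normoxia.

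Likeness of pattern was measured as the distance between the pairs of log2 ratios of the 2 steps, with 0.5 added to each count, over 12041 protein-coding genes and 3 libraries. The 5 genes nearest to CAPN8 were NDNF at a distance of 0.53, SLCO4A1 at 0.69, BOC at 1.00, PTX3 at 1.01 and EPHA3 at 1.03. NDNF, a secreted neurotrophic factor, had 101 fragments in oxamate, 6 in hypoxia and 0 in normoxia. SLCO4A1, an organic anion transporter, had 99, 5 and 0 in the same libraries, BOC had 74, 4 and 0, and EPHA3 had 61, 5 and 0. With 0 fragments in normoxia, the distances of these 4 depend on the added count. PTX3, a secreted pattern-recognition protein, had 802 fragments in oxamate, 49 in hypoxia and 5 in normoxia. CAPN8 thus had more fragments in each library than its 5 nearest genes. Nearest to CAPN2 were RNF152 at 0.023, with 267, 81 and 52 fragments in oxamate, hypoxia and normoxia, MAFF at 0.066, with 1427, 441 and 294, and GOLGA8A at 0.068, with 443, 127 and 80.

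**Figure D5:**
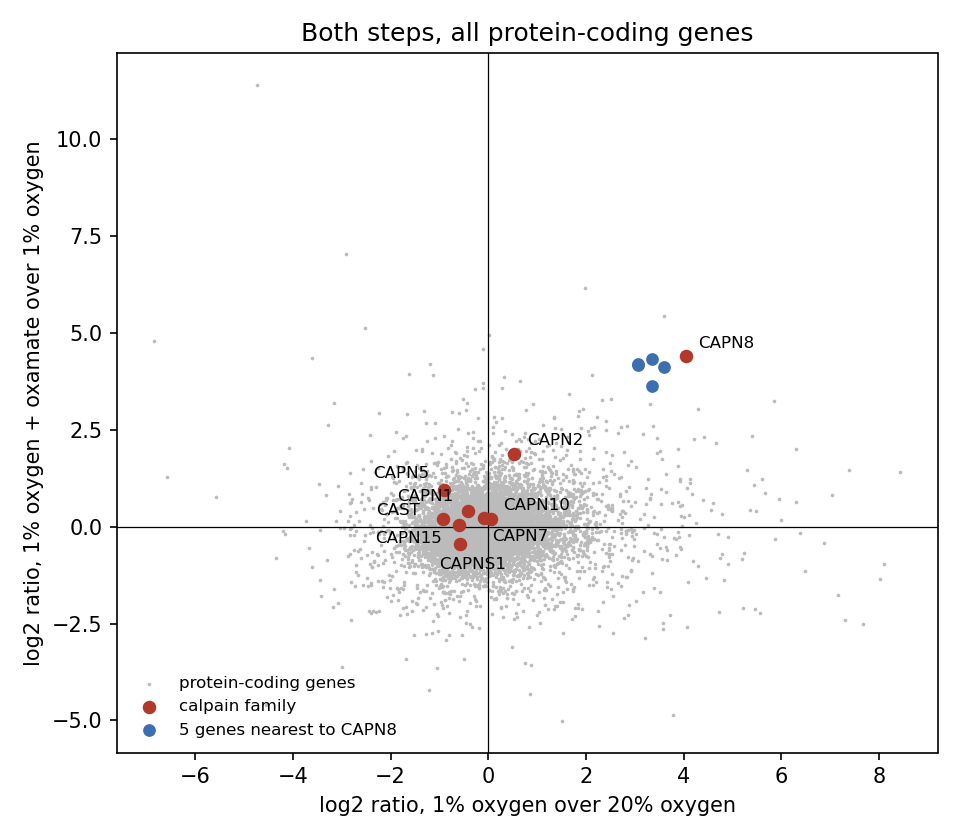
Log2 ratio of oxamate over hypoxia against that of hypoxia over normoxia for protein-coding genes (grey), 9 calpain family genes (red) and the 5 genes nearest to CAPN8 (blue), with 0.5 added to each count; both axes contain the hypoxia library. CAPN8 lies at 4.05 on the horizontal and 4.40 on the vertical axis, with its nearest gene 0.53 away. CAPN2 lies at 0.54 and 1.88, with its nearest gene 0.023 away. Both CAPN2 and the other 7 red points lie among other genes.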

How the data were processed

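Polyadenylated RNA from 3 Hep3B cultures was sequenced with 1 library per group, from 3 µg of RNA each, per the labels' protocols. The authors deposited 1 FPKM value per gene and library (fragments relative to a gene's exon length and to a size of its library). The library sizes implied by these values were 1.02 times the summed fragments in oxamate, 1.06 times in hypoxia and 0.938 times in normoxia. The deposited FPKM were thus not scaled to the summed fragments alone, and these factors are close to the trimmed mean factors given below. The unit was read from the values, as the file headers name the sample only. The genome build in the submitters' processing notes is hg38. The tools that the authors list there are edgeR 3.22.5, featureCounts 1.5.0-p3, HISAT2 2.0.5 and StringTie 1.3.3b, and their roles are not stated. The strand setting is not given in the sources used here, so reads of overlapping genes on opposite strands may not be separated.

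Within each library, FPKM times exon length came in equal steps: with a tolerance of 0.01, all values above 0 (100%) were whole steps. These fragments were used in place of deposited counts, which the design had assumed. The 21987 genes with 10 or more fragments in all (14327 of them protein-coding in GENCODE 29) gave trimmed mean of M values factors of 1.01 for oxamate, 1.05 for hypoxia and 0.943 for normoxia. Ratios of normalised fragments have 95% exact conditional binomial (Clopper-Pearson) intervals, and levels have exact Poisson intervals. With 1 library per group there was no test across samples: higher and lower were called by size alone, at 2-fold with 50 or more fragments on the higher side. The procedure was checked on simulated counts with counting error only and few genes changed, equally many up and down. That check could not cover the spread between cultures or scaling where many genes differ. Medians, ranks and distances use a prior count of 0.5. Alternatives changed the scaling, filter, fold, minimum and prior, or removed a trend on gene length or GC content. Work was done in Python 3.11.15 with numpy 2.4.6, pandas 2.3.3, scipy 1.17.1, statsmodels 0.14.6 and biopython 1.88.

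The genes, the 16 lists (139 genes) and the comparisons were chosen with earlier results of these data known. Genes named were all 10 calpain family genes, their neighbours, the 5 genes nearest to CAPN8 and 3 nearest to CAPN2 in pattern, and, from every other list, at most 4 members past 2-fold in a step. Not every gene so taken is printed, and substrates and other genes under 2-fold are given as examples chosen after their values were seen.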

Additional observations from a re-analysis of the deposited data

How the results depend on the processing

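No paired analysis was possible because each group has 1 library and the labels carry no replicate numbers, and no library could be left out. CAPN8 kept its direction and stayed past 2-fold under 8 settings, with log2 ratios of 4.34 to 4.42 for oxamate against hypoxia, 3.92 to 4.25 for hypoxia against normoxia and 8.32 to 8.60 for oxamate against normoxia. Of the calpain family genes, the number lower in oxamate against normoxia was 1 as reported, 2 at 1.5-fold (CAPNS1 and CAST), and 0 with total fragments, with factors from protein-coding genes, at 3-fold, with the whole interval past 2-fold and with a GC trend removed. With a gene length trend removed it was 1, CAST in place of CAPNS1. In hypoxia against normoxia it was 0 as reported, 4 at 1.5-fold (CAPN15, CAPNS1, CAPN5 and CAST) and 1 (CAST) with a gene length trend removed. The 2 trend corrections were chosen after seeing the data.

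Over all genes, higher and lower counts in oxamate against hypoxia were 1880 and 1895 at 1.5-fold, 307 and 222 at 3-fold, 2079 and 1867 with a minimum of 10 fragments, and 491 and 307 with the whole interval past 2-fold, against 813 and 697 as reported. In hypoxia against normoxia they were 2530 and 2970, 731 and 297, 3618 and 1773, and 944 and 665 under the same settings, against 1468 and 1094. In oxamate against normoxia they were 3306 and 3905, 1143 and 718, 4350 and 2911, and 1538 and 1462, against 2090 and 2080. These rules count by other limits, so the counts differ by construction. Of the single ratios recomputed for the other family genes, 136 moved by less than their counting error and 32 by more. Of these, 0 changed between higher and lower, but CAPNS1 lost its call and CAST gained one under the settings named above. Depth limits CAPN9, at 0 to 3 fragments, and the CAPN8 ratios against the 15 fragments of normoxia.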
